A study of Mus musculus with 2 samples.

Results

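Antisense RNA genes are noncoding genes that the annotation places on the strand opposite another gene. The 61 described here were measured in the cytosol of mouse macrophages, out of 55536 annotated genes in the deposited tables. They were selected on annotation and on measured values: each had a transcript of type antisense, none of type protein-coding or lincRNA, and a mean expected count (estimated fragments per gene) of 100 or more over both libraries. Of 3091 genes with an antisense transcript, 24 also had a coding or lincRNA transcript. A further 5 were left out by name (Kcnq1ot1, Tsix, Gas5 and symbols beginning Snhg), 1 of them with enough counts. Of the 3062 eligible genes, 1858 were listed at 0 counts in both libraries, 338 had a mean count of 10 or more and 61 reached 100. Because the mean count chose them, their counts are a description and not a finding.

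RNA was depleted of ribosomal RNA and sequenced from the cytosolic fraction of macrophages grown from bone marrow of C57BL/6J mice. Before harvest the cells spent 75 minutes with lipid A at 100 ng/ml, the lipopolysaccharide portion sensed by Toll-like receptor 4. There was 1 group of 2 libraries, each made from 1 µg of RNA and numbered as biological replicates 1 and 2. They share a donor identifier in the labels, age was not collected, and separate animals or cultures are not stated, so the spread between them may be partly technical. Both libraries carry the lipid A treatment, and no unstimulated cells, other times or nuclear fraction were analysed here, so groups could not be tested and p-values are not given. In such bulk RNA, fewer cells of a type and less RNA per cell cannot be told apart.

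Antisense transcription is common at mammalian genes. It may begin in the shared promoter region of a gene and run away from it, begin inside the gene, or run into its 3′ end from a neighbouring start. Some antisense RNAs act on the gene beside them, in the nucleus or on its mRNA, some carry microRNAs or small nucleolar RNAs in their introns or exons, and for most no role is known. The protein-coding gene whose span overlaps an antisense gene on the other strand is called its sense partner here.

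The following sequences show 3 ways in which an antisense gene meets another gene, and they are referred to beside the values. F630028O10Rik (chromosome X, 96239926 to 96243636, plus strand, mm10) has no coding partner and contains Mir223, the gene of the myeloid microRNA miR-223, whose mature RNAs are given from RefSeq (GRCm38.p6) with the seed, bases 2 to 8, in capitals.
mmu-miR-223-5p: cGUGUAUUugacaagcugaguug
mmu-miR-223-3p: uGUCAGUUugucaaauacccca
The arms have different seeds.

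Gm11175 (chromosome 8, 70699162 to 70700080, minus strand) lies wholly inside the coding exon of Jund, a subunit of the AP-1 transcription factor. The same 120 bases, chr8:70699961-70700080 in mm10, read as Gm11175 on the minus strand and as Jund on the plus strand, so that a read from here can be given to either gene unless its strand is used.
Gm11175, minus strand: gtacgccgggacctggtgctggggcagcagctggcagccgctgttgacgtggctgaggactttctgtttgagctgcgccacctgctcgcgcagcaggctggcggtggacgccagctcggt
Jund, plus strand: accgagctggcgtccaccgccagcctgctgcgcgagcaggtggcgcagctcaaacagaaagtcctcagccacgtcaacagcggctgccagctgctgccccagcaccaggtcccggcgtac

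Starts can also lie back to back or inside the partner. Map2k3os, shown as an example and chosen after its values were seen, begins 166 bases from the start of Map2k3, the kinase MKK3 that activates p38, and runs away from it, and the 165 bases between both starts are given (chr11:60931868-60932032, minus strand, GRCm38.p6). Capitals mark GGGCGG and CCAAT on either strand, none overlapping. Il1bos begins inside Il1b, the interleukin-1β gene, and in its promoter (chr2:129369652-129369951, plus strand, RefSeq, GRCm38.p6) capitals mark 49 coding bases of Il1b.
Map2k3os: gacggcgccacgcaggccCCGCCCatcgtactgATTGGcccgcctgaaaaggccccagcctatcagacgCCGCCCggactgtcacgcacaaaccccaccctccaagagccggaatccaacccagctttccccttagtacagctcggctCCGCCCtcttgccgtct
Il1bos: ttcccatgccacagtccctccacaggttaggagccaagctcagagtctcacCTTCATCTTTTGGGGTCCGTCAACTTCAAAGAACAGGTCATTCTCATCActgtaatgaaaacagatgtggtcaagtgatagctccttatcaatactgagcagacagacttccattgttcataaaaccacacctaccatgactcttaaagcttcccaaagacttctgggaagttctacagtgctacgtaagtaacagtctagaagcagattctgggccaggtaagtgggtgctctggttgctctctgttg
The Map2k3os window held 3 GGGCGG, 1 CCAAT and 14 CG pairs. Over the windows of the same length before the starts of 32851 RefSeq promoters, 29.5% held GGGCGG and 26.1% held CCAAT, and the median number of CG pairs was 4. The longer Il1bos promoter held 2 CG pairs and neither motif. A RefSeq promoter was matched by symbol for 22 of the 61 genes, and for 11 its start lay within 10 bases of the start used here.

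Replicate 2 had 50157146 expected counts over genes and replicate 1 had 55596625. The 7SL RNAs of the signal recognition particle took 60.5% of TPM (abundance corrected for transcript length and scaled to a fixed total) in replicate 2 and 69.8% in replicate 1, which lowers every other TPM value. All 10 macrophage markers, such as Lyz2, Csf1r and Adgre1, reached a mean of 1 TPM (summed level 7050 TPM in replicate 2 and 6685 TPM in replicate 1). Of 8 neutrophil markers 4 did so (summed 35.1 and 32.6 TPM), and of 5 B cell and 5 T cell markers none (summed 0.49 and 0.47 TPM, and 0.19 and 0.09 TPM).

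The antisense genes were a small part of the cytosolic RNA. Their summed expected counts were 0.0583% of the total in replicate 2 and 0.0611% in replicate 1, and their summed levels were 319.2 and 308.1 TPM. The median gene had 1.83 TPM in replicate 2 and 1.24 TPM in replicate 1, and the medians differed by less than a factor of 2. Taken as each gene's mean of both libraries, the median was 1.57 TPM, with a lowest value of 0.190 TPM (Gm49774, chosen after its values were seen) and a highest of 56.4 TPM. A mean of 1 TPM was reached by 44 of the 61 (72.1%). At the same count minimum it was reached by 51 of 70 lincRNA genes (72.9%, median 2.08 TPM) and 8589 of 9699 protein-coding genes (88.6%, median 5.10 TPM).

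Their transcripts were shorter than those of coding genes and more often unspliced. The most abundant transcript had a median length of 1612 bases, against 1966 in lincRNA genes and 2820 in coding genes. The median was 543 bases in the 11 genes that lie almost wholly over exons of the partner, described further on. It was 2217 bases in the 42 others with some exon overlap and 2134 in the 8 with none, both above lincRNA genes. The most abundant transcript had only 1 exon in 20 antisense genes (32.8%), 14 lincRNA genes (20.0%) and 211 coding genes (2.18%). Median GC content was 47.6%, between 46.6% in lincRNA genes and 50% in coding genes. The minimum is a count and not a level, so in all classes a long transcript passed at a lower TPM than a short one.

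By level in the first quantification, 4 genes stood above the rest. Gm26716 (chromosome 4, 130824394 to 130826313, minus strand) lies inside Sdc3, which encodes the cell-surface proteoglycan syndecan-3, and had 57.8 TPM in replicate 2 and 55.0 TPM in replicate 1 (mean 56.4 ± 1.96, SD, n = 2). Gm37401 (chromosome 9, 108337089 to 108338273, minus strand) meets the 3′ end of Rhoa, the small GTPase of the actin cytoskeleton, and had 51.2 and 42.9 TPM in replicates 2 and 1. 4930430E12Rik (chromosome 4, 6352105 to 6357530, minus strand) has no coding gene on the other strand and had 23.4 TPM in replicate 2 and 31.0 TPM in replicate 1. Gm15655, inside the macrophage transcription factor gene Maf (chromosome 8, 115705078 to 115707233, plus strand), followed with 26.1 and 27.3 TPM in replicates 2 and 1. Of these 4, the 3 with a partner lie almost wholly over its exons, a point taken up with the exon overlaps. In the authors' second quantification the mean levels were 0.0788 TPM for Gm26716, 11.1 for Gm37401, 36.8 for 4930430E12Rik and 13.7 for Gm15655.

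**Figure D1:**
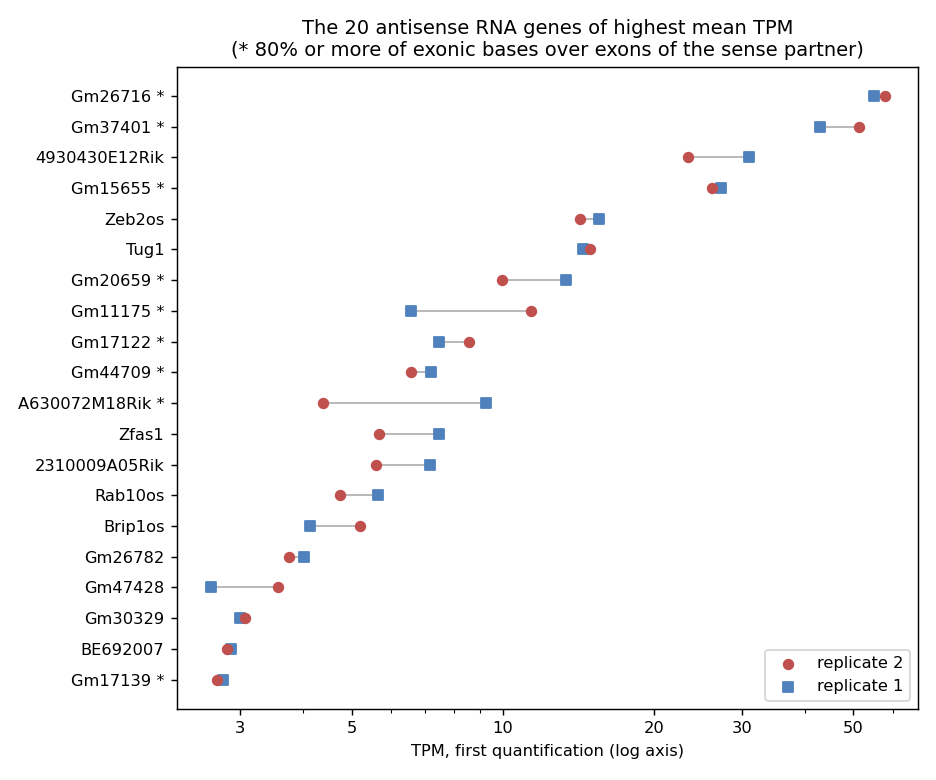
Levels of the 20 antisense RNA genes of highest mean TPM in the cytosol of lipid A-treated macrophages, first quantification, log axis; circles are replicate 2 and squares replicate 1, joined by a line for each gene, and an asterisk marks genes with 80% or more of their exonic bases over exons of the sense partner. Gm26716 leads with 57.8 and 55.0 TPM in replicates 2 and 1, and A630072M18Rik shows the widest gap, 4.38 TPM in replicate 2 and 9.28 TPM in replicate 1.

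Next came Tug1 and Zeb2os. Tug1, a long noncoding RNA conserved in mammals (chromosome 11, 3639785 to 3649673, minus strand), had the most fragments of all 61, 5429 in replicate 2 and 6486 in replicate 1. It had 14.9 and 14.5 TPM in replicates 2 and 1 (14.7 ± 0.311, SD, n = 2), and its most abundant of 8 annotated transcripts held 30.8% and 27.8% of it. Zeb2os (chromosome 2, 45110707 to 45114087, plus strand) runs opposite the 5′ part of Zeb2, a repressor that macrophages need to keep their identity. In human cells a natural antisense RNA of ZEB2 is known to affect splicing of the 5′ untranslated region of its mRNA. Zeb2os had 14.3 TPM in replicate 2 and 15.6 TPM in replicate 1, with 1499 and 1928 expected counts. For both genes the libraries lay close together.

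A630072M18Rik ranked second by count, with 2220 in replicate 2 and 5595 in replicate 1, which put the libraries more than 2-fold apart. Brip1os, which meets the 3′ end of the Mediator subunit gene Med13, had 2120 and 2012 expected counts and 5.19 and 4.14 TPM in replicates 2 and 1. BE692007 enters the membrane protein gene Ms4a6c from its 3′ end and runs opposite most of its span. It had 1079 and 1314 counts but 2.82 and 2.87 TPM, since its leading transcript is 4331 bases long. Gm30329, inside 1700011L22Rik, had 856 and 996 counts and 3.07 and 3.0 TPM. Rab10os, which meets the 3′ end of the GTPase gene Rab10, had 698 and 966 counts and 4.74 and 5.64 TPM. Among these, A630072M18Rik alone lay 2-fold or more apart between the libraries.

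Of the 61, 57 overlapped a protein-coding gene on the other strand, each a different gene, and 54 shared at least 1 exonic base with a coding gene there. By arrangement, 21 lay inside their partner, 18 overlapped it head to head, 15 tail to tail and 3 spanned it. A further 2 began within 5 kb of a coding start and ran away from it without overlap (Map2k3os, and 4930455G09Rik beside Fhad1, also named after its values were seen), and 2 had neither (4930430E12Rik and F630028O10Rik). Genes inside their partner had a median level of 2.74 TPM, against 1.34 TPM in tail-to-tail and 1.03 TPM in head-to-head genes. Without the 11 genes that lie almost wholly over exons of the partner, described further on, the 12 left inside their partner had a median of 1.31 TPM and the 13 left tail to tail 1.29 TPM. The leading transcripts of head-to-head genes had a median of 2692 bases, against 1262 bases in genes inside their partner. These are descriptions of 61 genes without a test.

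Most antisense genes lay below their partner. The 57 with a partner had a median of 1.54 TPM, and the partners a median of 17.8 TPM, with 51 of the partners at 1 TPM or more. The median log2 of the ratio of levels was -2.59, or 0.166-fold, after 0.1 TPM was added to both. It was -3.82 in the authors' second quantification and -3.23 without the 11 genes that lie almost wholly over exons of the partner. Of the 57, 24 stood below 10% of the partner's level and 5 below 1%. Over the 59 genes with an overlapping or divergent partner, log2 levels of gene and partner had Pearson's r = 0.19 and Spearman's rho = 0.20, given as a description across genes. The partner chosen was the one of highest TPM where several overlapped.

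**Figure D2:**
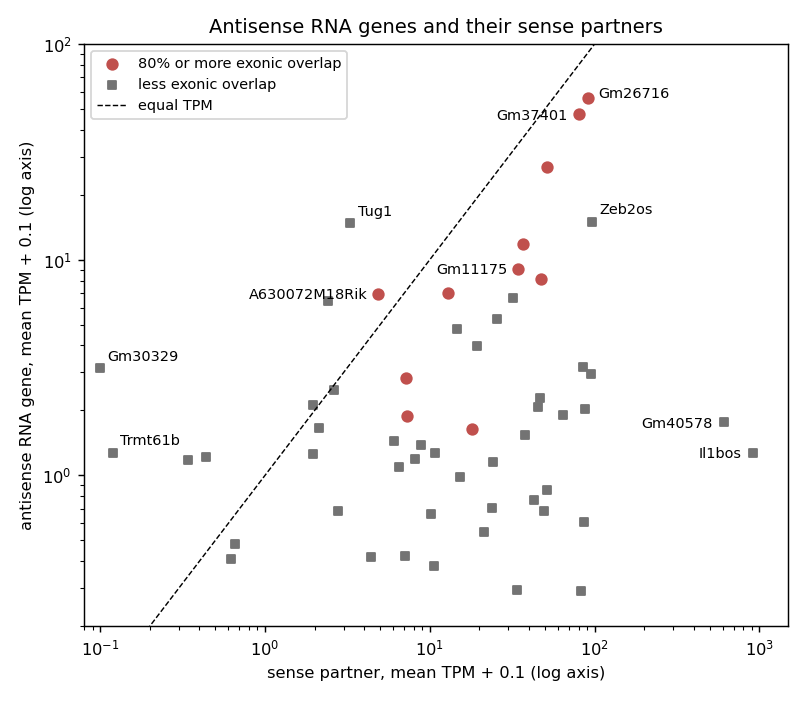
Mean level of each antisense RNA gene (vertical) against its overlapping sense partner (horizontal), both as TPM + 0.1 on log axes; red circles are genes with 80% or more of their exonic bases over the partner's exons, grey squares the others, and the dashed line is equal TPM. Most points lie below the line, Il1bos farthest at 0.128% of the partner's level, and Tug1, Trmt61b and Gm30329 lie above it.

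Among partners on the lists of the lipid A response and of macrophage identity, Il1b gave the widest gap in mean level, although in replicate 1 Gm40578 stood lower against Tnfaip2, at 0.0860%, than Il1bos against Il1b, at 0.124%. Il1bos (chromosome 2, 129369897 to 129375748, plus strand) had 1.19 TPM in replicate 2 and 1.15 TPM in replicate 1, with 152 and 170 expected counts. Il1b, the early inflammatory cytokine it faces, had 902.3 TPM in replicate 2 and 924.1 TPM in replicate 1. Il1bos thus stood at 0.128% of Il1b, and only 25 of its 2980 exonic bases lie over exons of Il1b. Its counts carried a posterior SD of 0, so the authors' estimate carried no uncertainty in dividing its reads among genes.

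Gm40578, tail to tail with Tnfaip2, a gene induced by TNF and lipopolysaccharide, had 2.81 TPM in replicate 2 and 0.52 TPM in replicate 1. Tnfaip2 had 609.8 and 604.9 TPM in replicates 2 and 1. Gm40578 reached the count minimum only through replicate 2, with 192 expected counts there and 42.0 in replicate 1. Tnfaip2 was not chosen by its counts, so the spread between the libraries is not compared for these genes. A coding gene on the same strand also overlaps the span of Gm40578, and the division of reads between them was not tested. In the second quantification Gm40578 had 2.09 times its first mean count. Gm10634, which spans Bcl2a1d, an anti-apoptotic gene induced through NF-κB, had 0.76 and 0.25 TPM in replicates 2 and 1. Bcl2a1d itself had 83.2 and 89.0 TPM, and it has near-identical paralogs, so the division of reads among them is uncertain. The list partners left are Jund (35.8 and 33.0 TPM) and Maf (49.7 and 53.0 TPM), whose antisense genes Gm11175 and Gm15655 had 26.1% and 52.0% of the partner's mean level. These 5 genes follow from the lists, which held genes picked for the treatment and tissue, and no more is read from their number.

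At the other end, 8 antisense genes exceeded their partner in mean level. Tug1 stood at 459% of Morc2a (3.54 TPM in replicate 2 and 2.86 TPM in replicate 1), an ATPase of a gene-silencing complex whose start it overlaps head to head by 483 bases. 2310009A05Rik, head to head with the GPI-anchor enzyme gene Pigb, had 5.58 and 7.15 TPM in replicates 2 and 1, against 2.29 and 2.32 TPM of Pigb. A630072M18Rik exceeded Rsbn1l, with 4.38 and 9.28 TPM against 4.53 and 4.98 TPM, but only in replicate 1. Trmt61b (0.96 and 1.39 TPM) is listed here under the symbol of a mitochondrial tRNA methyltransferase although the tables give it antisense transcripts and no coding one. Its partner, the cell cycle gene Spdya, had 0.03 and 0.01 TPM.

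The partner of Gm30329 was listed at 0 TPM in both libraries. The others above their partner, named because there are so few and chosen after their values were seen, were Gm16536 (Bace1), E130307A14Rik (Traf3ip2) and Gm26982 (Ghrl), at means of 2.02, 1.12 and 1.08 TPM. Gm16536 had 1.86 and 2.18 TPM in replicates 2 and 1, against 1.87 and 1.86 TPM of Bace1, and so exceeded it only in replicate 1. In these 8 pairs no partner exceeded a mean of 4.76 TPM.

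Zfas1 is a host gene of small nucleolar RNAs, and Snord12 and 2 further annotated small RNA genes lie inside it (chromosome 2, 167062934 to 167065862, plus strand). It overlaps by 82 bases, head to head, Znfx1, a helicase-domain protein of antiviral defence. Zfas1 had 5.67 TPM in replicate 2 and 7.48 TPM in replicate 1, against 31.8 and 32.3 TPM of Znfx1. F630028O10Rik, the gene around the miR-223 sequences given earlier (named after its values were seen), had 2.47 TPM in replicate 2 and 0.99 TPM in replicate 1. These values count the host RNA and not the mature microRNAs of 22 and 23 bases, and the labels give a size range of 250 to 400.

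Exon overlap set 11 genes apart. In them 87.3% to 100% of the exonic bases lay over exons of the partner, while the next highest share was 49.8%. They are Gm26716, Gm37401, Gm15655, Gm20659, Gm11175, Gm17122, A630072M18Rik, Gm44709, Gm17139, Gm43118 and Gm17344 (the last chosen after its values were seen). With Tug1, Zeb2os and 4930430E12Rik, 8 of them make up the 11 genes of highest mean TPM in the first quantification. In 9 of them at least 80% lay over the partner's 3′ untranslated region. Gm11175 lay over coding sequence of Jund, and A630072M18Rik mainly over the 5′ untranslated region of Rsbn1l, with 4613 of 5410 bases. Of their 12 annotated introns none had the ends of an intron of the partner. The strand used in the authors' counting is not given in the sources used here, so reads from these exons cannot be told apart from those of the partner.

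The 11 held more than their number of the level. Their mean levels summed to 178.6 TPM, against 135.1 TPM for the 50 others, and their median level was 8.01 TPM. Over these 11, level and partner level had r = 0.79 and rho = 0.85, and over the 48 others with a partner r = 0.04 and rho = 0.07. The limit of 80% was set after the data were seen, and these values are descriptions across genes. The authors' posterior SD had a median of 5.17% of the count in replicate 1 for the 11, against 0.655% for the 42 others with some exon overlap. In 16 of the 61 genes it was 0 in both libraries.

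The authors' second quantification, made directly from the reads, gave the same 11 genes other counts. In 6 of the 11 the mean count was below 10% of the first quantification's, in 7 below 50%, and the median quotient of second over first was 0.0119. Of the 50 other genes none was below 10%, 3 were below 50%, and 44 lay between 0.5 and 2 times, with a median of 1.19. Gm26716 had 0 and 7.63 counts in replicates 2 and 1 there, against 1110.5 and 1250 in the first. Gm11175 had 0 and 4.01, against 359 and 242, and Gm20659, inside the phosphatase gene Dusp3, had 0 in both libraries, against 374 and 593.

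Gm17122, inside the actin-binding gene Coro1c, and Gm43118, inside the phosphatidylinositol transfer gene Pitpnb, were also listed at 0 in the second quantification, as was nearly all of Gm44709 (4.01 and 0 counts), inside the elongation factor gene Supt5. Their first levels were 8.56 and 7.46 TPM, 2.33 and 1.22 TPM, and 6.57 and 7.21 TPM in replicates 2 and 1. By contrast Gm15655 and A630072M18Rik kept 1.25 and 1.04 times their first mean count, and Gm37401 kept 0.626 times. Among the 11, only A630072M18Rik, Gm15655, Gm37401, Gm17344 and Gm17139 had counts above 0 in both libraries there. Outside the 11, 4930430E12Rik had 3.11 times its first count there (3324 and 5160 counts in replicates 2 and 1).

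**Figure D3:**
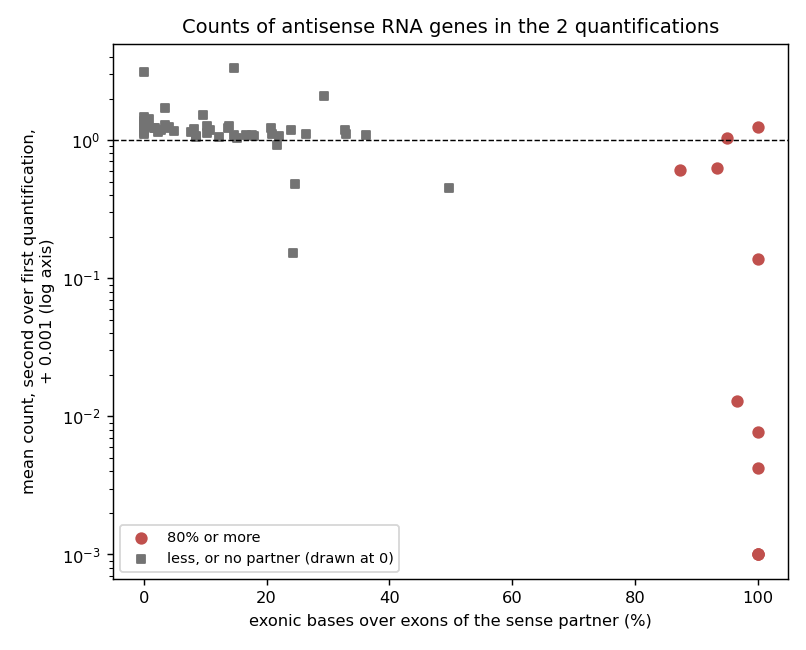
Mean count of each antisense RNA gene in the second quantification over the first, with 0.001 added (log axis), against the share of its exonic bases over exons of the sense partner; red circles are the 11 genes at 80% or more and grey squares the others, genes with no partner being drawn at 0. The median quotient was 0.0119 in the 11 and 1.19 in the 50 others.

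The libraries were compared by the ratio of replicate 2 to replicate 1, from counts scaled by TMM (trimmed mean of M-values) with 0.5 added, with 95% counting intervals that cover counting error only. The median log2 ratio of the 61 was 0.26, or 1.20-fold, and 40 were higher in replicate 2 and 21 in replicate 1. Over all 10091 genes of the same count minimum the median was -0.02, in lincRNA genes -0.02 and in coding genes -0.03. Of the 10091, 4585 were higher in replicate 2 and 5506 in replicate 1. The counting interval lay above 1 in 30 of the 61 genes, below 1 in 11 and across 1 in 20. The same shares over all genes were not computed, so these counts are not read as a trait of antisense genes. The rule did not use the ratio, but it used the same counts.

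Of the 61, 11 (18%) were at least 2-fold higher in replicate 2, against 1.31% of all genes averaging 100 counts or more. That share was far above the background of all genes and like that of lincRNA genes, of which 13 of 70 (18.6%) were as far apart; in coding genes it was 0.299%. Only 1 (1.64%) was at least 2-fold higher in replicate 1, against 0.287% of all genes. The classes were not matched for count, and 9699 of the 10091 genes were coding. At a minimum of 200 counts the median log2 ratio of the antisense genes was 0.02. None of the 52 overlapping sense partners averaging 100 counts or more was 2-fold apart in either direction, and their median log2 ratio was -0.03. Over the 59 genes with a partner the ratios of antisense gene and partner had r = 0.03 and rho = 0.08, a description across genes that share both libraries.

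The minimum bears on this count. Of the 61, 10 had under 100 counts in replicate 1 and 2 had under 100 in replicate 2, and 7 of the 11 reached the mean of 100 only through replicate 2. Among the 49 genes with 100 or more in each library, 4 (8.16%) were at least 2-fold higher in replicate 2, against 0.710% of all 9860 such genes and 8 of 56 lincRNA genes. Their median log2 ratio was 0.15, against -0.02 over all such genes.

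**Figure D4:**
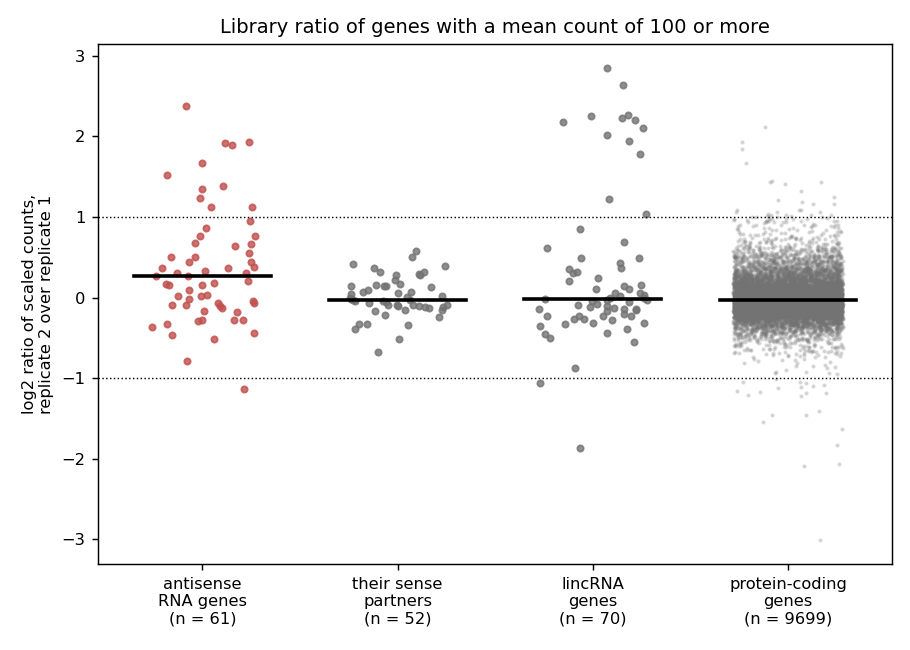
Log2 ratio of scaled counts, replicate 2 over replicate 1, of each gene averaging 100 counts or more, for the 61 antisense RNA genes, their 52 overlapping sense partners, 70 lincRNA genes and 9699 protein-coding genes; thick bars are medians and dotted lines mark 2-fold. The antisense genes have a median of 0.26 and a tail to 2.37, while no sense partner reaches 2-fold.

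Of the 4 with enough counts in each library, AC119228.1 had the most. It lies inside Cd274, the gene of the immune checkpoint ligand PD-L1 (chromosome 19, 29373417 to 29384471, minus strand), with 1015 expected counts in replicate 2 and 457 in replicate 1, a ratio of 2.54 (counting interval 2.27 to 2.85). Cd274 had a ratio of 0.845 (0.829 to 0.860). AC119228.1 was picked by its ratio and Cd274 was not, so their ratios are not compared. Gm15601, tail to tail with the phospholipase gene Ddhd1, had 335 counts in replicate 2 and 101 in replicate 1, a ratio of 3.78 (3.03 to 4.79), against 1.5 (1.42 to 1.57) for Ddhd1. F630028O10Rik, the miR-223 host, had 651 and 315 counts, a ratio of 2.36 (2.06 to 2.71). Of 6 neutrophil markers with a mean count of at least 10, 4 were higher in replicate 2, and 2 of these, Ltf and Mpo, at least 2-fold. The ratios of the 6 ran from 0.876 to 3.15, and S100a8 and S100a9 stood below 1, at 0.876 and 0.987. Of the 10 macrophage markers, 8 were also higher in replicate 2, with 0 at least 2-fold and ratios of 0.937 to 1.54. The share over all genes with a mean count of at least 10 was not computed. The part of neutrophil RNA in the ratio of F630028O10Rik was not tested. Gm16712, tail to tail with the cytokine subunit gene Ebi3 (named after its values were seen), had 249 and 130 counts, a ratio of 2.19 (1.77 to 2.73), against 0.941 (0.889 to 0.996) for Ebi3.

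The remaining 7 were at least 2-fold higher in replicate 2 with under 100 counts in replicate 1. Gm40578 had the highest ratio of all 61, with 192 counts in replicate 2 and 42.0 in replicate 1, a ratio of 5.18 (3.73 to 7.49), while Tnfaip2 stood at 0.958 (0.952 to 0.964). 4933423P22Rik, inside the receptor phosphatase gene Ptprj, had 307 and 92.0 counts, a ratio of 3.80 (3.02 to 4.88). Gm26811, tail to tail with the semaphorin receptor gene Plxna1, had 160 and 48.9 counts, a ratio of 3.71 (2.70 to 5.26), and Plxna1 a ratio of 1.41 (1.39 to 1.44). These genes were picked by their ratio and their partners were not, so the partners' ratios are given as values and not compared.

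4732440D04Rik, inside the autophagy gene Rb1cc1, had 168 and 60.0 counts in replicates 2 and 1, a ratio of 3.19 (2.37 to 4.38). Its TPM, 0.33 and 0.23, differed less, since the authors' estimate put 100% of it on the leading transcript of 5428 bases in replicate 2 and 39.8% in replicate 1. Gm10634 had 167 and 65.9 counts, a ratio of 2.88 (2.17 to 3.91). A130051J06Rik, head to head with the scramblase gene Ano6, had 153 and 66.6 counts, a ratio of 2.60 (1.95 to 3.54), and B930036N10Rik, head to head with the mRNA export gene Alyref2 and named after its values were seen, had 139 and 73.3 counts, a ratio of 2.17 (1.63 to 2.93). Of all 11, 10 were also at least 2-fold higher in replicate 2 in the second quantification, and Gm16712 fell just short at a log2 ratio of 0.997.

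**Figure D5:**
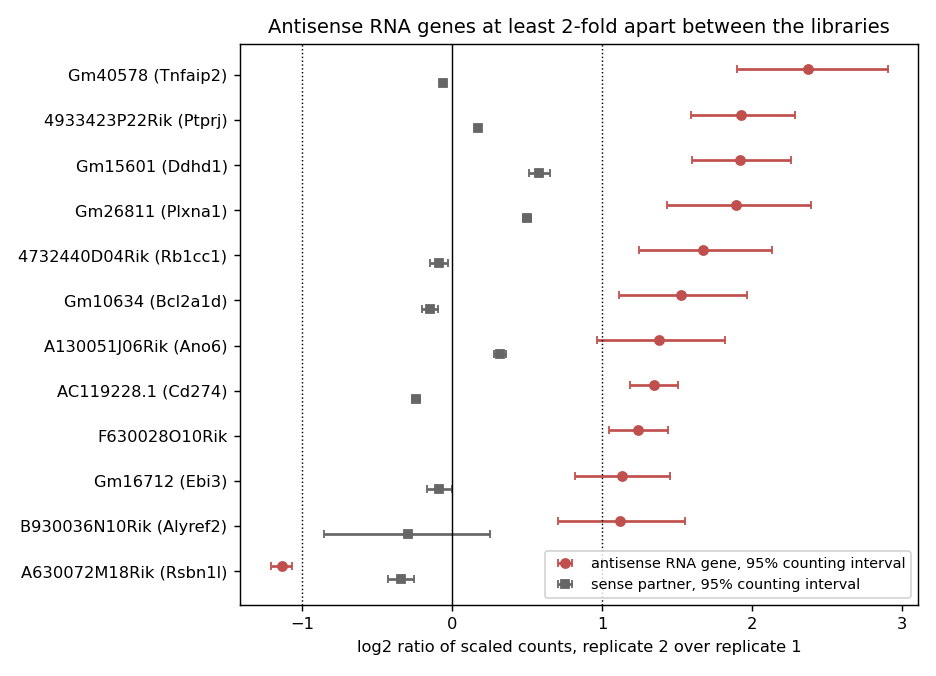
Log2 ratio of scaled counts, replicate 2 over replicate 1, of the 12 antisense RNA genes at least 2-fold apart between the libraries (circles) and of their sense partners, named in parentheses (squares), with 95% counting intervals; dotted lines mark 2-fold. Gm40578 is farthest at 2.37 and A630072M18Rik lies at -1.14; the antisense genes were picked by this ratio and the partners were not.

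RNAs known to stay in the nucleus differed between the libraries in the same direction. Of a list of 10, 7 had a mean count of 10 or more, all 7 were higher in replicate 2, and 6 were at least 2-fold higher, with ratios of 1.23 to 4.76 and a median of 4.06. The lowest, Pvt1, had 27 and 25 counts in replicates 2 and 1 and an interval across 1 (0.691 to 2.22). Among all genes averaging 100 counts or more, 1.31% were at least 2-fold higher in replicate 2. The share at a mean of 10 was not computed. The list summed to 871.7 TPM in replicate 2, against 175.0 TPM in replicate 1. Malat1, of nuclear speckles, had 799.2 and 158.1 TPM, Neat1, of paraspeckles, 64.6 and 14.8 TPM, and Xist 5.44 and 1.03 TPM, while Meg3, Tsix and Miat were listed at 0. The part of nuclear RNA in the ratios of the antisense genes was not tested.

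The 1 gene past 2-fold the other way was A630072M18Rik (chromosome 5, 20950989 to 20956398, plus strand), whose end coincides with the start of Rsbn1l. Its ratio was 0.454 (0.432 to 0.477), against 0.788 (0.741 to 0.837) for Rsbn1l, and it is among the 11 genes that share nearly all exonic bases with the partner. Next came Gm27177, tail to tail with the Golgi enzyme gene Entpd4b, with 432 counts in replicate 2 and 854 in replicate 1, a ratio of 0.579 (0.515 to 0.651). Entpd4b has a near-identical copy, and the posterior SD of Gm27177 was 15.2% of its count in replicate 2, so its division of reads is uncertain. A530040E14Rik (C130026I21Rik, of a family of close copies) followed at 0.699, Gm20659 (Dusp3) at 0.722, 4930430E12Rik at 0.739 and Gm37696 (the GTPase gene Rap2b) at 0.776. Trmt61b at 0.795 and 2310009A05Rik at 0.818 had intervals that reached past 1, up to 1.03 and 1.00. None of these 7 was 2-fold apart in the first quantification. In the second, Gm27177 had 143 counts in replicate 2 and 474 in replicate 1, a log2 ratio of -1.61.

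Tug1 had a ratio of 0.958 (0.924 to 0.993), Zeb2os 0.890 (0.831 to 0.953) and Zfas1 0.821 (0.713 to 0.945), each slightly lower in replicate 2 beyond counting error. Gm26716 had 1.02 (0.937 to 1.10), Gm15655 0.929 (0.830 to 1.04) and Il1bos 1.02 (0.817 to 1.28), all across 1. In contrast, Brip1os, at 1.21 (1.13 to 1.28), and Gm11175, at 1.70 (1.44 to 2.01), were higher in replicate 2 in the first quantification. Brip1os kept this direction in the second, at a log2 ratio of 0.20. Gm11175 did not, at -3.12 on only 0 and 4.01 counts in replicates 2 and 1. It lies wholly over exons of Jund, so its reads cannot be told apart from those of Jund and its direction is left undecided. With 1 library on each side none of these ratios has a replicate check.

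The genes just inside the minimum were Gm43118 and Gm17139, each with a mean count of 102, and Gm20628, which spans the histone gene Hist2h3b, with 103. Just outside lay Gm44672 with 96.0, 2900089D17Rik with 92.8 and A930005H10Rik with 90.5. Their levels overlapped: the first 3 had means of 1.78, 2.74 and 0.320 TPM, and A930005H10Rik had 2.97 TPM in replicate 2 and 2.58 TPM in replicate 1.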

How the data were processed

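Ribosomal RNA-depleted total RNA from macrophage cytosol was sequenced in 2 libraries of 1 group. All tables used mm10 and annotation M21, per the readme files deposited with them; the sources used here do not give the aligner, the quantifiers or the strand setting. The authors deposited expected counts, estimated and not normalized, per gene and transcript (first quantification, from transcriptome alignments) and per transcript (second, directly from reads, summed per gene here). TPM values are the authors' own, summing to the same total in every table. Transcript shares in percent and posterior SDs of counts were also deposited. The gene tables held 50157146 counts in replicate 2 and 55596625 in replicate 1 after entries without a gene identifier (0.204% and 0.251%) were left out.

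Transcript types came from the 8th field of the identifiers in the second quantification, and partners from the M21 annotation. Rounded expected counts were scaled by TMM, using genes that averaged at least 10 (edgeR 4.0.16, R 4.3.3), with DESeq2 1.42.0 size factors and library totals as alternatives. Intervals are 95% Clopper-Pearson; fragments are not independent molecules, so they cover counting error only. The ratio and interval calculations were run on simulated Poisson counts with known folds. Such counts hold counting error only, so this run checks the arithmetic and not the division of reads or differences between libraries. Python 3.11.15, pandas 2.3.3 and scipy 1.17.1 did the rest.

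The genes and lists were chosen with earlier results of these data known, and the limit of 80% exonic overlap was set after the data were seen. Named are the 12 genes of highest mean TPM, the 10 of highest mean count, the 8 of largest ratio in each direction, genes whose partner is on a list, the 3 just inside and 3 just outside the minimum, and their partners; any other gene is said to be chosen after its values were seen.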

Additional observations from a re-analysis of the deposited data

How the results depend on the processing

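Against a median level of 1.57 TPM, the second quantification gave 0.590 TPM, TPM scaled over nuclear coding genes 7.2, a minimum of 50 counts 1.06 and of 200 counts 2.85; leaving out a library gave 1.24 to 1.83. The number of genes was 113 at a minimum of 50 and 29 at 200, 52 to 64 with a library left out, and 83 by the second quantification. The count at least 2-fold higher in replicate 1, 1 as reported, was 4 in the second quantification and 0 without the 11 genes of high exonic overlap. The median log2 level over the partner, -2.59, was -3.82 in the second quantification, -3.23 without those 11, and -2.58 to -2.54 with a library left out. The count at least 2-fold higher in replicate 2 was 11 under both other scalings, in the second quantification and without those 11, and 4 with 100 counts required in each library, an alternative chosen after the data were seen. The median log2 ratio stayed above 0 in every alternative run, from 0.02 (minimum of 200) to 0.31 (without those 11). The number above their partner was 7 to 10 and with a partner 54 to 57. Of 33 named genes, none moved under DESeq2 size factors or library totals and 11 moved in the second quantification, among them Gm26716 (-4.04 on the log2 scale, against 0.02), Gm11175 (-3.12, against 0.76) and Gm44709 (3.22, against -0.18), each on few counts there; the cause was not tested. Gm27177 also moved in the second quantification, to -1.61 against -0.79, on 143 counts in replicate 2 and 474 in replicate 1. No paired analysis was possible because there is only 1 group. Counting error limits genes near the minimum most.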
